A study of Mus musculus with 10 samples.

Results

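The effect of ATF4 genotype was estimated across both treatments in cultured mouse cortical neurons, as the difference between ATF4-deficient (KO) and wildtype (WT) neurons with the treatment held constant. All 10 arrays of the series entered the estimate, 4 from KO and 6 from WT neurons, and it was made for 22180 genes, each represented by its brightest probe set that carries exactly 1 gene symbol. The neurons came from the cortex of mouse embryos at embryonic day 14.5 to 15.5, had been in culture for 7 days, and then received 5 µM sodium arsenite or vehicle for 12 hours. There were 2 WT vehicle arrays, 4 WT arsenite arrays, 2 KO vehicle arrays and 2 KO arsenite arrays. The labels call the KO neurons ATF4 deficient without naming the allele, the deleted exons or the strain, and they call the samples biological replicates without saying whether each was a separate embryo or culture. The p-values therefore measure the spread between these samples, which may be partly technical. Because WT arsenite has 4 arrays, the pooled difference weighs the difference under arsenite at 57.1% and that under vehicle at 42.9%.

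ATF4 is a basic leucine zipper transcription factor of the integrated stress response. Kinases that sense stress phosphorylate the initiation factor eIF2 alpha, which slows general translation while translation of the Atf4 transcript rises, and ATF4, paired with C/EBP proteins, then activates genes through a composite element called the C/EBP-ATF response element (CARE). Its known targets import and make amino acids, charge tRNAs and feed back on the response. Arsenite, which reacts with protein thiols, is a classic activator of this pathway.

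All differences are KO minus WT on the log2 scale of the deposited values, so a negative value means a lower level in KO. Adjusted p-values are from limma, Benjamini-Hochberg adjusted over all 22180 genes, and a gene is said to have risen or fallen where the adjusted p is below 0.05. Array medians lay between 7.00 and 7.09 and array correlations across genes between 0.982 and 0.994. On the first principal component (26.8% of the variance) KO arsenite replicate 2 was the extreme array, at 29.4 against -18.2 to 8.70 for the other 9 arrays. Levels of Xist, the RNA that silences an X chromosome in females, were 11.75 to 12.26 on 4 arrays (WT vehicle replicate 2, WT arsenite replicate 4, KO vehicle replicate 1 and KO arsenite replicate 1) and 6.26 to 8.09 on the other 6. Receptor genes of the nose, which neurons should not express, served as a reference for dim signal, and 90% of them were below 6.63. Of 14 pan-neuronal markers, 0 had a mean under that level, against 3 of 13 astrocyte markers, 5 of 13 microglial and macrophage markers and 9 of 11 endothelial markers. Over all genes tested, 13524 of 22180 had a mean above it.

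Atf4 itself was at 9.09 and 9.56 on the WT vehicle arrays and at 9.43, 9.80, 9.64 and 9.91 on the WT arsenite arrays. It was at 7.65 and 7.48 on the KO vehicle arrays and at 7.54 and 7.70 on the KO arsenite arrays. Every KO array lay below every WT array. The pooled difference was -1.94 (SE 0.12, adjusted p = 3.34e-05), a level 3.84-fold lower in KO, and it passed without each of the 10 arrays in turn. The remaining KO signal cannot be assigned to a part of the transcript, since the labels do not say what was removed.

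Across the genome, 313 of 22180 genes passed the threshold for genotype (1.41%). Of these, 218 fell in KO neurons (0.983% of the genes tested) and 95 rose (0.428%). The falls were also larger: 31 genes fell by more than 1 log2 unit, while 2 rose by more than that, and the median difference was -0.56 among the genes that fell and 0.44 among those that rose. The 4 KO arrays lay below all 6 WT arrays for 331 genes (1.49%), 147 of which had fallen (0.663%), and above all 6 for 273 genes (1.23%), 54 of which had risen (0.243%). The number of genes called was sensitive to single arrays. It was 88 without KO vehicle replicate 2, 91 without WT vehicle replicate 2, 98 without KO arsenite replicate 2, 158 without WT arsenite replicate 1, 164 without WT arsenite replicate 4 and 189 without KO arsenite replicate 1, and 56 genes passed without each of the 10 arrays in turn.

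Pooling the treatments brought out genes that neither treatment resolved by itself. Under vehicle alone 56 genes were lower (0.252%) and 40 higher (0.18%), and under arsenite alone 60 were lower (0.271%) and 16 higher (0.0721%). Of the 313 genes in the pooled term, 51 had also passed under vehicle, 61 under arsenite, 12 under both and 213 under neither. In the other direction, 45 genes called under vehicle and 15 called under arsenite did not pass in the pooled term. For all 313 genes the differences under vehicle and under arsenite had the same sign, but the pooled call is built from both, and over all genes 60.3% had the same sign. Among the genes that fell, the difference was larger under vehicle for 124 and larger under arsenite for 94. For the genes that rose, it was larger under vehicle for 42 and larger under arsenite for 53. No gene passed the threshold for an interaction of genotype with treatment (0 of 22180 in limma, with 1330 genes, 6%, at an unadjusted p under 0.05).

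**Figure D1:**
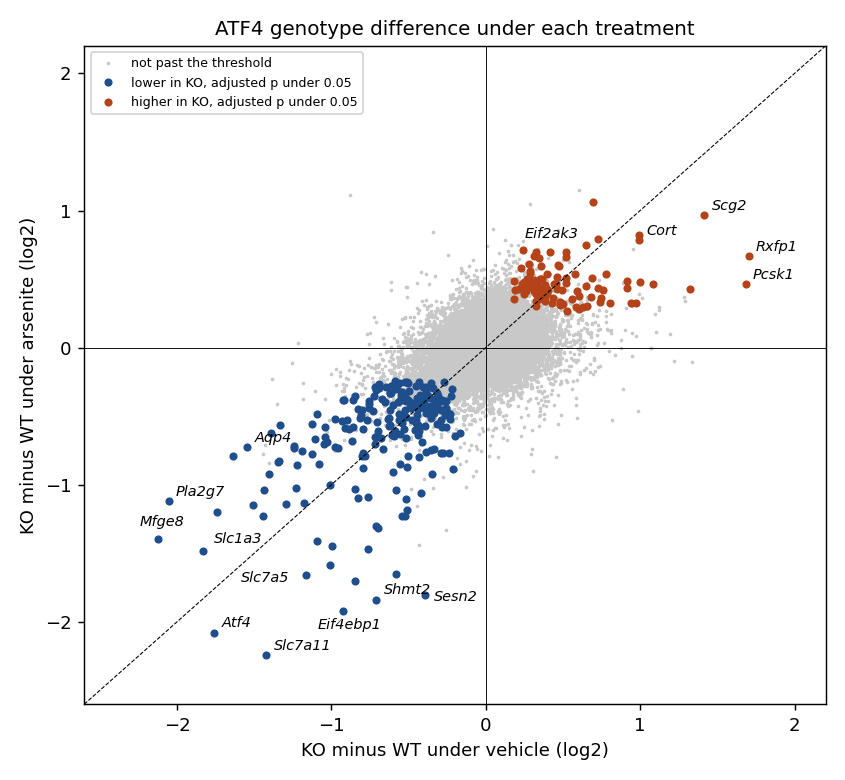
Each point is 1 of 22180 genes, with the KO minus WT difference under vehicle on the horizontal axis and under arsenite on the vertical axis, both in log2 units. Genes that fell in the pooled term (blue, 218) and rose (red, 95) lie in the lower left and upper right, with Sesn2, Shmt2 and Eif4ebp1 well below the dashed line of equal differences and Pla2g7, Aqp4, Rxfp1 and Pcsk1 nearer to the vehicle side.

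Of the 218 genes that fell, 50 were on any list, and genes of the integrated stress response made up 25 of these. In 4 lists that cover the response's regulators, amino acid synthesis, amino acid transport and cytosolic tRNA charging, 25 of 64 measured genes fell and 0 rose. The median difference over the 64 genes was -0.45, beside 0.01 over all genes tested. It was -0.23 under vehicle and -0.64 under arsenite, and each of the 25 genes that fell had its larger difference under arsenite. The interaction had an unadjusted p under 0.05 for 13 of the 25. The number that fell was 10 without WT vehicle replicate 2 or without KO arsenite replicate 2, 11 without KO arsenite replicate 1, 13 without KO vehicle replicate 2 and 15 without WT arsenite replicate 4.

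The promoters of these genes were read for the CARE letters, TGATGNAA on either strand, in RefSeq windows of 300 bases (250 before and 50 after each annotated start, GRCm38.p6; a gene with several starts counts if any window matches). Of the 16990 tested genes with a window, 666 held a match (3.92%). The share was 30% in the 4 lists (15 of 50) and 38.9% among their members that fell (7 of 18). It was 8.24% among all genes that fell (14 of 170) and 5.33% among those that rose (4 of 75). The 14 include the 7 list members just counted. The stretches below show where the match sits in the 6 called list members with the largest falls that have one, with the matched letters in capitals. For Slc7a11, Tars and Chac1 the 250 bases before the start are given. For Slc1a4, Yars and Iars, where the match lies at or just past the start, 30 bases around it are given.
Slc7a11: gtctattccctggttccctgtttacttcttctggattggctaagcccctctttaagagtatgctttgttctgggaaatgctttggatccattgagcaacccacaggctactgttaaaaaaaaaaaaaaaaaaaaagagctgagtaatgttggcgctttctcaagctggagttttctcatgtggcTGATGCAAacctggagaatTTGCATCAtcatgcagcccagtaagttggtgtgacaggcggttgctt
Tars: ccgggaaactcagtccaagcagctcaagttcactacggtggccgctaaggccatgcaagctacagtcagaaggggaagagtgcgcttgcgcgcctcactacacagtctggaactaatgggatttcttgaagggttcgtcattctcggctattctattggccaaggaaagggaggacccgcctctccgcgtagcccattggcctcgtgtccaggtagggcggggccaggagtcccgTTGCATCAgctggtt
Chac1: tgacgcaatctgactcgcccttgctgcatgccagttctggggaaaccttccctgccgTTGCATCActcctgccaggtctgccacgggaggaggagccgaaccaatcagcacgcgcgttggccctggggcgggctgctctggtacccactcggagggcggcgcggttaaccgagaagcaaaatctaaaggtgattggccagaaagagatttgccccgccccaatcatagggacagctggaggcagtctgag
Slc1a4: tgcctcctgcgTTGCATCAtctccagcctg
Yars: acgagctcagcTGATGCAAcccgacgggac
Iars: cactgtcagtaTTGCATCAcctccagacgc
In order, these are chr3:50443614-50443863 on the minus strand, chr15:11399659-11399908 on the minus strand, chr2:119350992-119351241 on the plus strand, chr11:20332699-20332728 on the minus strand, chr4:129189895-129189924 on the plus strand and chr13:49682126-49682155 on the plus strand. The Slc7a11 stretch holds 2 matches, the first of them 66 bases before the start, and the Chac1 match begins 193 bases before the start. All 6 windows carry the fully spelled form TGATGCAA on one strand or the other, which occurs in 0.895% of windows of all tested genes. A match describes the letters only. The 5 amino acid synthesis genes with a window that fell held 0 matches.

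Amino acid transporters had the largest median difference of any list. Of 11 measured, 6 fell and 0 rose, with a median of -0.93. Slc7a11, which imports cystine for glutathione synthesis, was at 6.13 and 7.04 under vehicle and at 8.70, 8.87, 8.67 and 9.12 under arsenite in WT neurons. In KO neurons it was at 5.51 and 4.82 under vehicle and at 6.79 and 6.41 under arsenite. Within each treatment all KO arrays were below all WT arrays, but KO arsenite overlapped WT vehicle. The pooled difference was -1.89 (SE 0.22, adjusted p = 0.00241). Of these arrays, both KO vehicle arrays, KO arsenite replicate 2 and WT vehicle replicate 1 are under the dim reference, where background limits how much of a difference can be seen. A dimmer second probe set of Slc7a11, with a mean of 4.00 and so also under that reference, had a difference of -0.17.

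Slc7a5, the light chain of the large neutral amino acid transporter, was at 10.18 and 10.98 in WT vehicle and between 11.37 and 11.67 in WT arsenite. Its KO levels were 9.70 and 9.14 under vehicle and 9.76 and 9.93 under arsenite, all below every WT array. It fell by 1.44 (SE 0.17, adjusted p = 0.00241). Its partner Slc3a2, the heavy chain that brings both Slc7a5 and Slc7a11 to the cell surface, fell by 0.93 (SE 0.14, adjusted p = 0.00995; chosen for mention after its value was seen). The cationic amino acid transporters moved with them. Slc7a1 fell by 1.34 (SE 0.16, adjusted p = 0.00358), and Slc7a3, which is not on the list and lies under the dim reference on all 4 KO arrays and WT vehicle replicate 1, fell by 1.16 (SE 0.20, adjusted p = 0.0171). Slc1a4, a transporter of alanine, serine and cysteine, was at 9.62 and 10.05 in WT vehicle and from 10.39 to 10.73 in WT arsenite, against 8.63 to 9.17 on the 4 KO arrays. Its difference was -1.25 (SE 0.13, adjusted p = 0.00132). The calls of Slc7a11, Slc7a5, Slc7a1, Slc1a4 and Slc3a2 passed without each array in turn. Slc7a3 lost its call without WT vehicle replicate 2, without KO vehicle replicate 2 and without either KO arsenite array.

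Of 15 measured genes of amino acid synthesis and one-carbon metabolism, 6 fell and 0 rose, with a median of -0.59. Aldh1l2, a mitochondrial folate enzyme, was at 8.10 and 8.49 in WT vehicle and from 9.02 to 9.31 in WT arsenite, against 7.28 and 7.13 in KO vehicle and 7.85 and 7.59 in KO arsenite. The groups did not overlap, and the difference was -1.28 (SE 0.10, adjusted p = 0.000402). Shmt2, the mitochondrial enzyme that splits serine to load folate, was at 8.11 and 8.75 in WT vehicle and at 9.24, 9.93, 9.34 and 9.33 in WT arsenite. The KO arrays read 7.99 and 7.45 under vehicle and 7.76 and 7.49 under arsenite. KO levels were thus alike under both treatments, while WT arsenite lay above WT vehicle. The Shmt2 difference was -1.35 pooled (SE 0.23, adjusted p = 0.0171), -0.71 under vehicle and -1.84 under arsenite (interaction adjusted p above the threshold). Aldh18a1, which starts proline synthesis, fell by 1.05 (SE 0.14, adjusted p = 0.00724), and Psat1, an enzyme of serine synthesis, fell by 1.19 (SE 0.23, adjusted p = 0.0287). Asparagine synthetase, Asns, had a difference of -0.73 (adjusted p = 0.0546) and Mthfd2, another mitochondrial folate enzyme, of -1.01 (adjusted p = 0.0624), neither past the threshold. Aldh1l2 and Aldh18a1 passed without each array in turn. Shmt2 and Psat1 lost their calls without WT vehicle replicate 2, KO vehicle replicate 2 or either KO arsenite array, and Psat1 also without WT arsenite replicate 4. The list held 2 calls without WT vehicle replicate 2 or KO arsenite replicate 2 and 3 without KO vehicle replicate 2 or KO arsenite replicate 1.

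Enzymes that charge tRNAs in the cytosol and in mitochondria are encoded by largely separate genes. Of 19 measured cytosolic aminoacyl-tRNA synthetases 8 fell and 0 rose (median -0.40), while of 16 measured mitochondrial ones 0 passed, with a median of -0.00 and a range of -0.16 to 0.22. Cars, the cysteinyl enzyme, was at 8.80 and 9.01 in WT vehicle and from 9.34 to 9.67 in WT arsenite, against 8.02 to 8.40 on the KO arrays. It fell by 1.05 (SE 0.13, adjusted p = 0.00391). Yars, the tyrosyl enzyme, ranged from 9.66 to 10.21 in WT and from 8.86 to 9.32 in KO, again without overlap, and fell by 0.84 (SE 0.12, adjusted p = 0.00754). The methionyl enzyme Mars1 fell by 0.72 (SE 0.09, adjusted p = 0.00358), the threonyl enzyme Tars by 0.93 (SE 0.17, adjusted p = 0.0229) and the isoleucyl enzyme Iars by 0.58 (SE 0.11, adjusted p = 0.0252). Cars, Yars and Mars1 passed without each array in turn. Tars and Iars lost their calls without WT vehicle replicate 2, WT arsenite replicate 4 or either KO arsenite array. The cytosolic list held 3 calls without WT vehicle replicate 2, WT arsenite replicate 4 or either KO arsenite array, and 5 without KO vehicle replicate 2, WT arsenite replicate 1 or WT arsenite replicate 2.

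Regulators of the response were less uniform. Of 19 measured, 5 fell and 0 rose, with a median of -0.31. Eif4ebp1, which holds back cap-dependent translation, fell by 1.49 (SE 0.27, adjusted p = 0.0212), from 7.30 and 8.44 in WT vehicle and 8.92 to 9.62 in WT arsenite to 6.51 to 7.42 in KO. Sesn2, a stress-induced inhibitor of mTORC1, was at 7.12 and 7.94 in WT vehicle and at 8.50, 9.17, 8.71 and 9.10 in WT arsenite. On the KO arrays it stayed between 6.89 and 7.38, which overlaps WT vehicle but not WT arsenite. Its difference was -1.20 pooled (SE 0.26, adjusted p = 0.0491), -0.39 under vehicle and -1.81 under arsenite. Chac1, which degrades glutathione, fell by 0.90 (SE 0.16, adjusted p = 0.0223), and Atf5, a related transcription factor, by 0.60 (SE 0.12, adjusted p = 0.0377). Other familiar members did not pass: Ddit3, which encodes CHOP, at -0.44 (adjusted p = 0.171), the pseudokinase gene Trib3 at -0.20 (adjusted p = 0.293) and Atf3 at -0.02 (adjusted p = 0.949). The 5 falls here were the least stable of the 4 lists, with 0 left without WT vehicle replicate 2, KO vehicle replicate 2 or either KO arsenite array, 2 left without WT arsenite replicate 4, 3 left without any other WT arsenite array and 8 called without WT vehicle replicate 1. Atf5 and Sesn2 were also among the 5 called genes with the smallest interaction p (0.002 and 0.00256, adjusted 0.701 and 0.724).

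**Figure D2:**
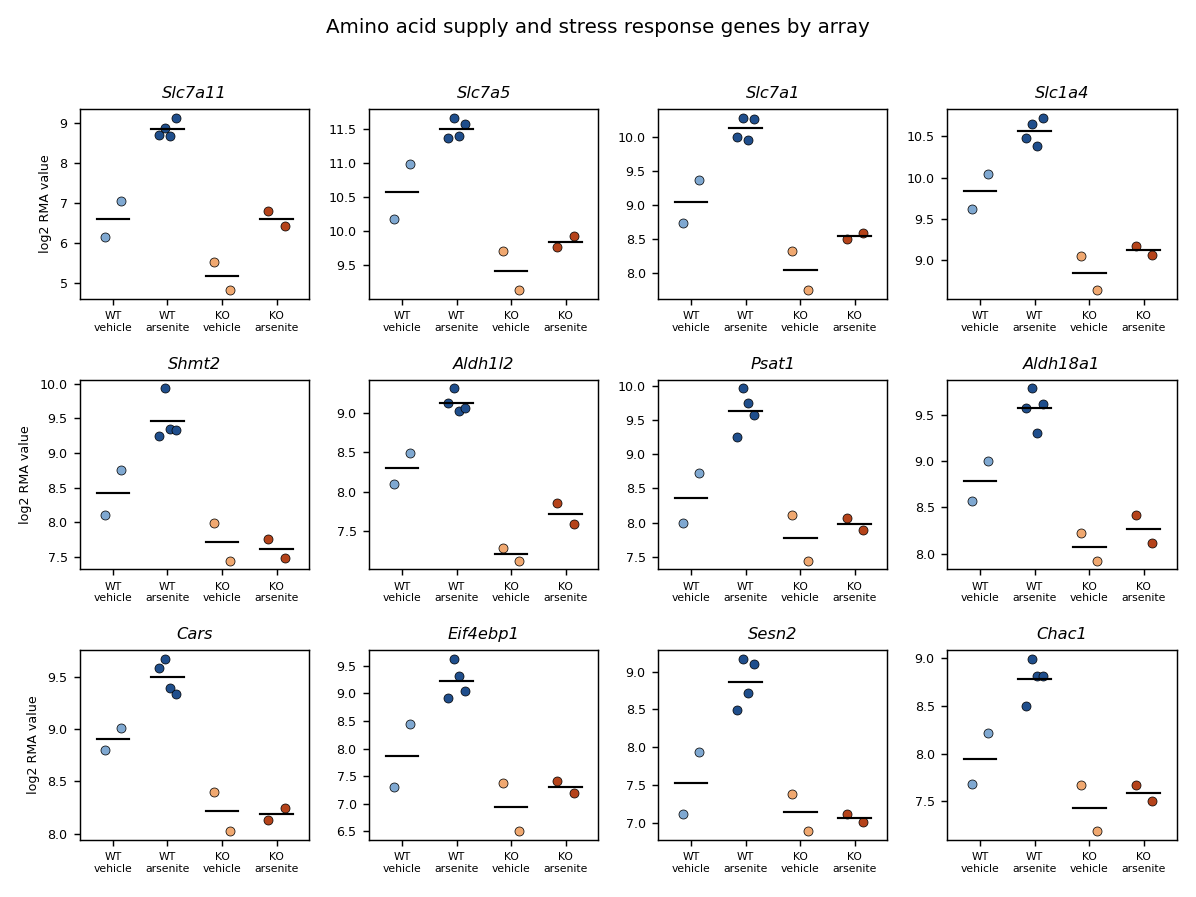
Each panel gives the deposited log2 value of 1 gene on the 10 arrays, 2 WT vehicle, 4 WT arsenite, 2 KO vehicle and 2 KO arsenite, with bars at the group means. WT arsenite is the highest group in all 12 panels. For Shmt2, Sesn2 and Cars the KO arrays are at about the same level under both treatments, and for Slc7a11 the KO arsenite arrays lie above the KO vehicle arrays.

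Few genes passed in the lists around these. Of 25 measured genes of the ATF/CREB and C/EBP families, 1 fell (Atf5) and 0 rose. Of 19 measured targets of NRF2, the oxidative stress factor, 1 fell (Slc7a11, which is also an ATF4 target) and 0 rose. The median was -0.16, with 16 estimates below 0 and 3 above. The mean level over the 19 genes was 7.90 to 8.03 in KO vehicle, against 8.18 to 8.31 in WT vehicle. Under arsenite it was 8.38 to 8.40 in KO, against 8.65 to 8.73 in WT. Hmox1, which encodes haem oxygenase 1, was at 7.48 and 7.76 in WT vehicle and 10.68 to 11.04 in WT arsenite, against 8.05 and 6.67 in KO vehicle and 9.90 and 9.18 in KO arsenite. Its pooled difference of -0.87 (SE 0.27) did not pass (adjusted p = 0.143). Of 15 heat shock genes, 0 passed in either direction (median 0.08).

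The list with the most rises was that of chaperones of the endoplasmic reticulum (ER). Of 17 measured, 7 rose and 0 fell, all 17 differences were above 0, and the median was 0.38 beside 0.01 over all genes. The median was 0.30 under vehicle and 0.45 under arsenite, and the KO arrays lay above the WT arrays without overlap for all 7. The mean level over the 17 genes ranged from 9.31 to 9.45 on the KO arrays and from 8.87 to 9.04 on the WT arrays. Hsp90b1, the ER member of the HSP90 family, was at 11.24 and 11.09 in WT vehicle and from 11.06 to 11.14 in WT arsenite. Its KO levels were 11.48 and 11.67 under vehicle and 11.74 and 11.86 under arsenite, and it rose by 0.58 (SE 0.08, adjusted p = 0.00678). Hspa5, the central ER chaperone BiP, was at 9.39 and 9.17 in WT vehicle and 8.99 to 9.18 in WT arsenite, against 9.59 to 9.72 in KO. It rose by 0.48 (SE 0.07, adjusted p = 0.0103).

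Dnajc3, a co-chaperone that also inhibits eIF2 alpha kinases, was at 8.34 and 8.40 in WT vehicle and from 8.06 to 8.38 in WT arsenite, against 8.62 to 9.04 in KO. It rose by 0.60 (SE 0.10, adjusted p = 0.0141). Hyou1, a large HSP70-type chaperone, rose by 0.54 (SE 0.09, adjusted p = 0.0177) and Dnajb9, a co-chaperone of BiP, by 0.51 (SE 0.08, adjusted p = 0.0127). The remaining members that rose were the disulphide isomerase gene Pdia6 (0.47, SE 0.07, adjusted p = 0.0132) and Creld2 (0.49, SE 0.10, adjusted p = 0.0347). These, with Hspa5, were chosen for mention after their values were seen. Hsp90b1, Hspa5 and Dnajb9 passed without each array in turn. The list held 4 calls without KO vehicle replicate 2 or KO arsenite replicate 2.

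Many ER chaperone promoters carry the ER stress response element (ERSE), the site through which the unfolded protein response factor ATF6 is known to act. Its letters, CCAAT and CCACG separated by 9 bases of any kind, were searched on both strands and found in the windows of 29 of 16990 tested genes (0.171%). They were present in 8 of 15 measured ER chaperones with a window (53.3%) and in 5 of the 6 that rose (83.3%), namely Creld2, Dnajc3, Hsp90b1, Hspa5 and Pdia6. These 5 were also the only matches among the 75 genes with a window that rose (6.67%), and 0 of 170 that fell had a match. The 250 bases before the start are shown for the called chaperones with the largest rises that have the element, with the element in capitals.
Dnajc3: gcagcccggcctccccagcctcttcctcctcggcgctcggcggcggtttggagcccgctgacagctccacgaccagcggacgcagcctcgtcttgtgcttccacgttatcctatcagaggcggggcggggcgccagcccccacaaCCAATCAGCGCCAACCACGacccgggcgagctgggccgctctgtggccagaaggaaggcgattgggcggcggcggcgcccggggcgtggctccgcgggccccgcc
Hsp90b1: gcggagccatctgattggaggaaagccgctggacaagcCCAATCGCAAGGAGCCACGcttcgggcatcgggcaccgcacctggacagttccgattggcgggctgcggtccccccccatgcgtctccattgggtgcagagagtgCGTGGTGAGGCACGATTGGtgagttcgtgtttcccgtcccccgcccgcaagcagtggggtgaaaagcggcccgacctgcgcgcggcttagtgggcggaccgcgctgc
The Dnajc3 stretch is chr14:118937682-118937931 on the plus strand, with the element beginning 105 bases before the start. The Hsp90b1 stretch is chr10:86705445-86705694 on the minus strand and holds 2 elements, one in each orientation, the first beginning 212 bases before the start. Both sequences are from RefSeq, GRCm38.p6.

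Rises in the ER stress machinery itself were limited to Eif2ak3, which encodes PERK, the ER-resident eIF2 alpha kinase upstream of ATF4. It was the only 1 of 13 measured ER stress sensor and degradation genes to rise, with 0 that fell. Its levels were 7.73 and 7.91 in WT vehicle, 8.04, 8.10, 7.96 and 7.96 in WT arsenite, 8.32 and 8.62 in KO vehicle, and 8.74 and 8.78 in KO arsenite. All KO arrays were above all WT arrays, and the rise was 0.71 (SE 0.08, adjusted p = 0.00166), or 1.63-fold, with 0.65 under vehicle and 0.75 under arsenite. It passed without each array in turn. Among 11 genes of the eIF2 alpha kinases and phosphatase, Eif2ak3 was also the only rise, and Ppp1r15b, the constitutive phosphatase subunit that reverses the phosphorylation, the only fall (-0.38, SE 0.08, adjusted p = 0.0309). That fall passed in 3 of the 10 fits that left out an array, and it was lost without WT vehicle replicate 2, WT arsenite replicates 1, 2 or 4, KO vehicle replicate 2 or either KO arsenite array.

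**Figure D3:**
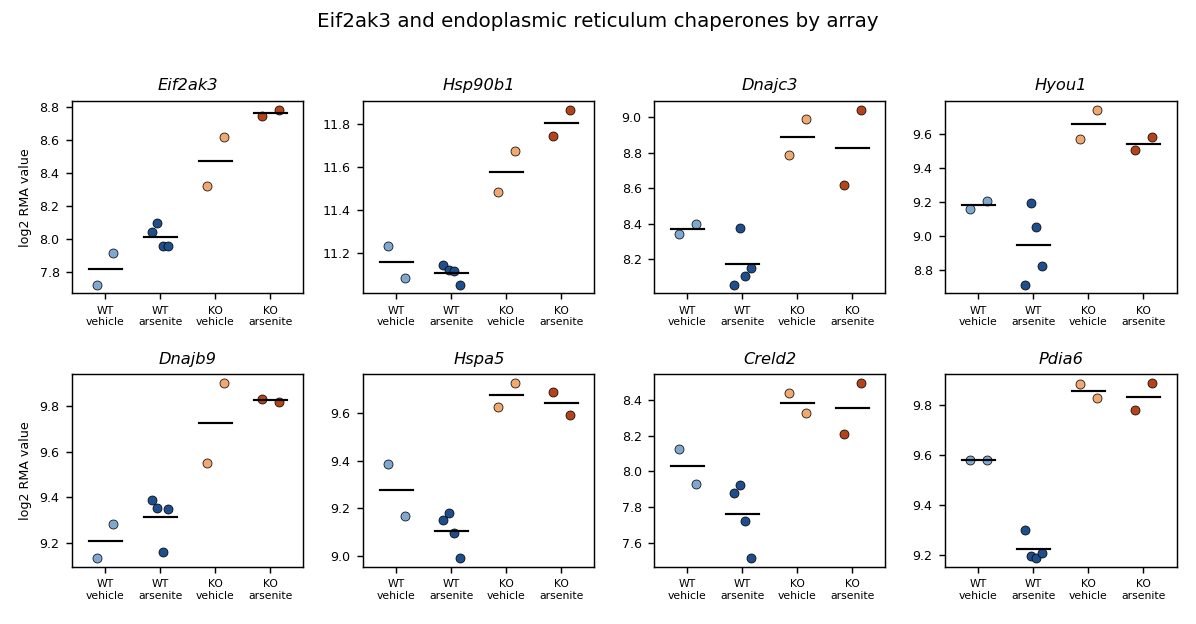
Each panel gives the deposited log2 value of Eif2ak3 or an ER chaperone on the 10 arrays, with bars at the group means. In all 8 panels both KO groups lie above both WT groups with no overlap, as in Eif2ak3 at 8.32 to 8.78 against 7.73 to 8.10.

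Some markers of glia and some genes of the perineuronal matrix also fell. All the called astrocyte, matrix, oligodendrocyte lineage and progenitor genes except Olig2 and Hes5 had their larger difference under vehicle. Of 13 measured astrocyte markers, 5 fell and 0 rose, with a median of -0.51 (-0.80 under vehicle and -0.37 under arsenite). The mean level over the 13 markers was 8.15 and 8.37 on the WT vehicle arrays and 7.97, 7.70, 7.60 and 8.13 on the WT arsenite arrays. It was 7.60 and 7.27 on the KO vehicle arrays and 7.53 and 7.17 on the KO arsenite arrays, so that the highest KO array and the lowest WT array meet at 7.60. In RNA from a whole culture, fewer cells of a type and less RNA per cell cannot be told apart. Beside this, the mean level of 14 pan-neuronal markers was 10.19 to 10.32 on the KO arrays and 10.17 to 10.35 on the WT arrays.

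Slc1a3, the glial glutamate transporter GLAST, was at 9.84 and 10.05 in WT vehicle and at 9.92, 9.44, 9.27 and 10.07 in WT arsenite. It was at 8.70 and 7.52 in KO vehicle and at 8.72 and 7.67 in KO arsenite, so replicate 2 was the lower of each KO pair. The fall was 1.63 (SE 0.26, adjusted p = 0.0127), and without KO arsenite replicate 2 it did not pass. Sox9, a transcription factor of glial fate, was at 8.60 and 8.85 in WT vehicle, from 8.13 to 8.41 in WT arsenite, at 8.12 and 7.71 in KO vehicle and at 7.62 and 7.40 in KO arsenite. It fell by 0.79 (SE 0.10, adjusted p = 0.00373), passed without each array in turn, and the groups were separate. The water channel gene Aqp4 fell by 1.08 (SE 0.22, adjusted p = 0.0356) and the bicarbonate transporter gene Slc4a4 by 1.01 (SE 0.20, adjusted p = 0.0329). Each of these lost its call without either WT vehicle array, either KO vehicle array, KO arsenite replicate 2 or WT arsenite replicate 1, and Aqp4 also without WT arsenite replicate 4. The gap junction gene Gja1 (-1.02, adjusted p = 0.0739) and Slc1a2, the other main glial glutamate transporter (0.12, adjusted p = 0.563), did not pass. Of the 5 astrocyte calls, 1 was left without KO arsenite replicate 2, 2 without KO vehicle replicate 2, WT arsenite replicate 1 or either WT vehicle array, and 3 without KO vehicle replicate 1 or WT arsenite replicate 4.

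Further falls are on no list and are named by their size alone, except Aldoc, which is named through the glycolysis list. Mfge8, a secreted bridge for engulfing dying cells, was at 10.01 and 10.68 in WT vehicle and 9.13 to 10.10 in WT arsenite, against 7.71 to 8.74 in KO. It fell by 1.71 (SE 0.26, adjusted p = 0.0103), which was second only to Atf4 among genes whose groups did not overlap. Pla2g7, a secreted phospholipase that degrades platelet-activating factor, fell by 1.52 (SE 0.22, adjusted p = 0.00995) with KO levels of 5.43 to 6.41, under the dim reference. Slc38a3, a glutamine transporter, fell by 1.32 (SE 0.14, adjusted p = 0.00166), from 8.49 to 9.21 in WT to 7.31 to 7.77 in KO. All 3 passed without each array in turn. Nrgn, a postsynaptic gene described below, was in the same range at -1.30. So were Emp2, a membrane protein gene (-1.21, SE 0.19, adjusted p = 0.0127; not past the threshold without KO arsenite replicate 2), and Abhd4, a lipid hydrolase gene (-1.21, SE 0.24, adjusted p = 0.0307; passed in 4 of the 10 fits that left out an array). Aldoc, the brain aldolase, was the only 1 of 17 glycolysis genes to fall (-0.89, SE 0.20, adjusted p = 0.047), and it passed in 2 of those 10 fits.

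The perineuronal matrix list had 5 falls and 0 rises among 12 measured genes, with a median of -0.24. Bcan, which encodes the proteoglycan brevican, was at 8.20 and 8.31 in WT vehicle and at 8.15, 7.65, 7.38 and 8.34 in WT arsenite. It was at 6.77 and 6.26 in KO vehicle and at 7.03 and 6.33 in KO arsenite, below every WT array and, for replicate 2 of each KO pair, under the dim reference. Its difference was -1.43 (SE 0.21, adjusted p = 0.00962). Tnc, which encodes tenascin C, fell by 1.15 (SE 0.20, adjusted p = 0.0195), Hapln1, a link protein of the same matrix with 6 of 10 arrays under the dim reference, by 0.83 (SE 0.16, adjusted p = 0.0279), and Ptprz1, a receptor phosphatase that binds tenascins, by 0.72 (SE 0.11, adjusted p = 0.0115). Bcan and Ptprz1 passed without each array in turn. Both Tnc and Hapln1 lost their calls without WT vehicle replicate 2, KO vehicle replicate 2 or KO arsenite replicate 2, after which 3 of the list's genes were left, Tnc also without KO arsenite replicate 1, and Hapln1 also without WT arsenite replicates 1 or 4.

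Some genes of the oligodendrocyte lineage and of progenitors were lower too. Of 12 measured oligodendrocyte lineage genes, 3 fell and 0 rose (median -0.08), with 7 estimates below 0 and 5 above 0. Olig2, the transcription factor that specifies the lineage, was at 8.54 and 8.80 in WT vehicle, 8.20 to 8.51 in WT arsenite, 8.11 and 7.55 in KO vehicle and 7.67 and 7.13 in KO arsenite, and it fell by 0.95 (SE 0.13, adjusted p = 0.00825). Its relative Olig1 fell by 0.94 (SE 0.18, adjusted p = 0.0268) and Pdgfra, a receptor tyrosine kinase of oligodendrocyte precursors, by 0.56 (SE 0.11, adjusted p = 0.034). Of 14 progenitor and cycling cell genes, 3 fell and 0 rose (median -0.16): Fabp7, a fatty acid binding protein of radial glia, by 0.72 (SE 0.12, adjusted p = 0.0158), the Notch target Hes5 by 0.60 (SE 0.09, adjusted p = 0.0108) and Sox2, a factor of neural stem cells, by 0.59 (SE 0.12, adjusted p = 0.0322). A dimmer second probe set of Hes5 had a difference of 0.02. Olig2 and Hes5 passed without each array in turn. The oligodendrocyte list kept 1 call without WT vehicle replicate 2, WT arsenite replicates 1 or 4, KO vehicle replicate 2 or KO arsenite replicate 2, and the progenitor list 1 call without WT vehicle replicate 2. The CARE letters were in 0 of the 18 windows of measured astrocyte and oligodendrocyte lineage genes, beside 3.92% over all tested genes. At that share, 18 windows are too few to show a lack of the letters. Markers of microglia and macrophages (13 measured), endothelium (11) and pericytes (8) had 0 calls, and 1 of 10 meningeal fibroblast markers fell, Pdgfra, whose call counts on both lists and passed in 1 of the 10 fits that left out an array (that without WT arsenite replicate 3).

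Because the astrocyte marker level moved with genotype, the pooled term was also fitted with each array's astrocyte marker mean as a covariate, an alternative added after the data were seen. The covariate is strongly but not fully tied to genotype and raised the standard errors 1.87-fold. With it 0 genes passed (2114 at an unadjusted p under 0.05). The estimate for Atf4 was -1.90 (adjusted p = 0.0692), the median of the 4 stress response lists -0.57 and that of the ER chaperones 0.31, while the median of the astrocyte markers was 0.04. The last value, like that of Slc1a3 (from -1.63 to -0.37), is brought toward 0 by construction, since these markers make up the covariate. Of genes outside it, Mfge8 moved from -1.71 to -0.38 and Bcan from -1.43 to -0.35. How far culture makeup accounts for the falls in glial genes was not tested.

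**Figure D4:**
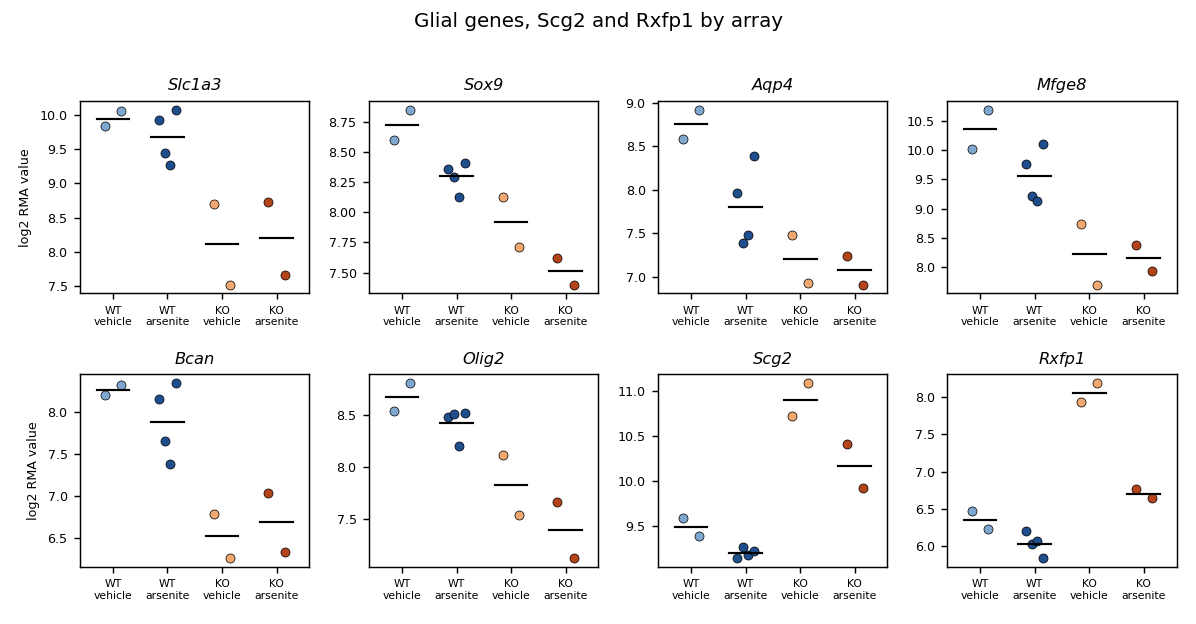
Each panel gives the deposited log2 value of 1 gene on the 10 arrays, with bars at the group means. The 6 glial and matrix genes are lower in both KO groups (Bcan 6.26 to 7.03 against 7.38 to 8.34 in WT), with KO replicate 2 the lower of each KO pair, and Scg2 and Rxfp1 are higher in both KO groups, most of all under vehicle.

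Of the 95 genes that rose, 14 were on any list, the 7 ER chaperones among them. Scg2, a granin of dense-core vesicles, was at 9.59 and 9.39 in WT vehicle, 9.15 to 9.27 in WT arsenite, 10.73 and 11.09 in KO vehicle and 10.41 and 9.93 in KO arsenite. It was the largest rise among genes whose groups did not overlap, at 1.16 (SE 0.12, adjusted p = 0.00149), or 2.23-fold. Rxfp1, the relaxin receptor, was at 6.47 and 6.23 in WT vehicle and 5.85 to 6.20 in WT arsenite, under the dim reference, against 7.92 and 8.18 in KO vehicle and 6.76 and 6.65 in KO arsenite. It rose by 1.11 (SE 0.17, adjusted p = 0.0113), with 1.70 under vehicle and 0.67 under arsenite, the smallest interaction p of any called gene (0.000138, adjusted p = 0.340). Both passed without each array in turn. Pcsk1, a convertase that cuts prohormones, rose by 0.99 (SE 0.21, adjusted p = 0.0395), with 1.68 under vehicle and 0.46 under arsenite, and passed in 2 of the 10 fits that left out an array. Brinp3, a neural gene, rose by 0.81 (SE 0.16, adjusted p = 0.0287), with 1.32 under vehicle and 0.43 under arsenite. Their interaction p-values were 0.000371 and 0.000923 (adjusted 0.439 and 0.687).

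Of 21 measured neuropeptide and granin genes, 2 rose (Scg2 and Pcsk1) and 1 fell, neurotensin (Nts, -0.69, SE 0.14, adjusted p = 0.0324). Cort, which encodes the inhibitory peptide cortistatin and is not on that list, rose by 0.87 (SE 0.16, adjusted p = 0.0225). For Pcsk1 and Cort, as for Sult2b1 named further on, 4 of the 6 WT arrays are under the dim reference, and for Eif4ebp1 and Rps19bp1 KO vehicle replicate 2 is. Of 23 activity-regulated genes, 1 rose, the MAP kinase phosphatase gene Dusp5 (0.40, SE 0.07, adjusted p = 0.0222), and 0 fell. Their median was 0.17 pooled, 0.30 under vehicle and 0.00 under arsenite. The interaction had an unadjusted p under 0.05 in limma for 11 of the 23, beside 6% of all genes, and 0 passed after adjustment. With both treatments weighed equally, 6 of the 23 were called. The immediate early gene Fos was at 8.50 and 8.22 in KO vehicle and between 6.35 and 7.13 on the other 8 arrays, and its pooled difference of 0.51 did not pass (adjusted p = 0.323). Npas4, an activity-dependent transcription factor, was at 8.72 and 8.44 in KO vehicle and between 6.58 and 7.50 elsewhere (0.47, adjusted p = 0.32). Both were thus high on the KO vehicle arrays alone. The 3 peptide and granin calls dropped to 1 without either WT vehicle array, KO vehicle replicate 2 or WT arsenite replicate 4, and to 2 without any other array except KO arsenite replicate 1. Nts passed in 4 of the 10 fits, and Dusp5 lost its call without WT vehicle replicate 2, KO vehicle replicate 2 or KO arsenite replicate 2. The CRE letters, TGACGTCA, through which CREB is known to act, were in 2.65% of windows of all tested genes and in 4 of 75 genes that rose (5.33%), Scg2 and Pcsk1 among them.

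Synaptic and neuronal marker lists held between 0 and 3 calls each. Of 18 presynaptic genes, 2 fell, Syn2, which tethers synaptic vesicles (-0.56, SE 0.10, adjusted p = 0.0248), and Cplx2, which clamps vesicle fusion (-0.51, SE 0.09, adjusted p = 0.0171), and 1 rose, the vesicular glutamate transporter gene Slc17a6 (0.39, SE 0.07, adjusted p = 0.0171). Of 19 glutamate and GABA-A receptor genes, Gabra2 rose (0.70, SE 0.12, adjusted p = 0.0171) and 0 fell. Of 15 postsynaptic genes 0 passed, with 13 estimates below 0 and a median of -0.17, but Nrgn, a calmodulin-binding postsynaptic protein gene outside that list, fell by 1.30 (SE 0.21, adjusted p = 0.0129). Among 14 pan-neuronal markers, the neuronal tubulin gene Tubb3 fell by 0.44 (SE 0.07, adjusted p = 0.00995), from 11.08 to 11.40 in WT to 10.68 to 11.06 in KO, and the neurofilament gene Nefl rose by 0.49 (SE 0.09, adjusted p = 0.0283). The 12 inhibitory neuron markers had a median of -0.29, with 9 estimates below 0. Of these, 2 fell and 0 rose, Dlx2, a transcription factor of interneurons (-0.38, SE 0.07, adjusted p = 0.0223), and Reln, which encodes reelin (-0.37, SE 0.08, adjusted p = 0.0433), and of 13 excitatory markers 1 rose (Slc17a6). Tubb3 passed without each array in turn. The other genes named in this paragraph did not: WT vehicle replicate 2 was needed by all but Gabra2, and KO vehicle replicate 2 by all but Nrgn.

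Among 19 death and p53 genes, 1 fell, Hrk, a BH3-only gene that promotes apoptosis in neurons (-0.68, SE 0.13, adjusted p = 0.0267), and 0 rose. It was at 6.72 and 7.54 in WT vehicle and 7.47 to 7.74 in WT arsenite, against 6.43 and 6.40 in KO vehicle and 6.97 and 6.98 in KO arsenite, so KO arsenite overlapped WT vehicle, and the KO vehicle values are under the dim reference. Hrk passed in 4 of the 10 fits that left out an array. Other rises named by size were the elongation factor-like gene Tceal9 (0.76, SE 0.08, adjusted p = 0.00129), the protocadherin genes Pcdh11x (0.73, SE 0.15, adjusted p = 0.0356) and Pcdh9 (0.67, SE 0.12, adjusted p = 0.0255), the sulphotransferase gene Sult2b1 (0.59, SE 0.12, adjusted p = 0.0356), the synaptic adhesion gene Slitrk6 (0.58, SE 0.11, adjusted p = 0.0248) and the microRNA locus Mir194-2 (0.90, SE 0.20, adjusted p = 0.0497). Of these, Tceal9 passed without each array in turn, although its second probe set differed by 0.25, Slitrk6 is under the dim reference on all 10 arrays, and Mir194-2 and Sult2b1 each passed in 1 of the 10 fits. The lists of RGS genes (19 measured), cholesterol synthesis (17), proteasome (30), respiratory chain (23), and autophagy and lysosome (18) had 0 calls in either direction, with medians of -0.02, 0.13, 0.07, -0.01 and -0.04.

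**Figure D5:**
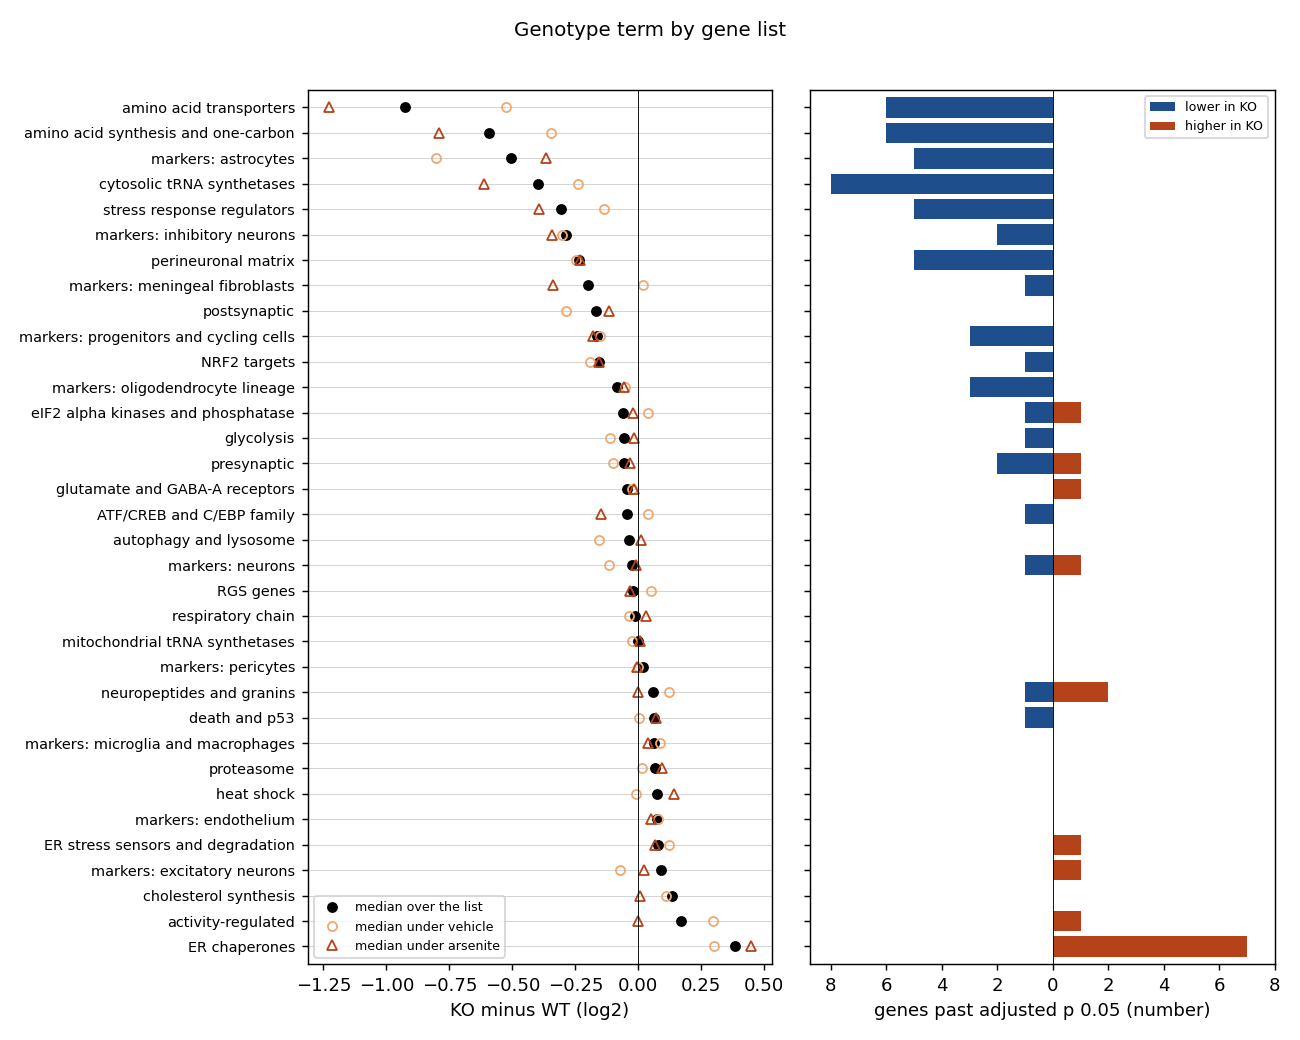
The left panel gives each list's median KO minus WT difference in log2 units, pooled (filled circles), under vehicle (open circles) and under arsenite (triangles), and the right panel gives the number of its genes that fell (blue) or rose (red). Amino acid transporters lie lowest (-0.93) and ER chaperones highest (0.38), and the arsenite medians lie farther out than the vehicle medians for both, while for astrocytes the vehicle median does (-0.80 against -0.37).

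Because a targeted locus can carry changes in nearby genes, the 10 tested genes on each side of Atf4 on chromosome 15 were read in gene order. Of the 20, 2 passed. Rps19bp1, the next tested gene, whose protein binds ribosomal protein S19, was at 7.79 and 7.61 in WT vehicle, 7.37 to 7.56 in WT arsenite, 6.89 and 6.59 in KO vehicle and 6.71 and 6.74 in KO arsenite. It fell by 0.83 (SE 0.08, adjusted p = 0.00129), without overlap and with a call that passed without each array in turn. Rpl3, which encodes a protein of the large ribosomal subunit and lies 7 positions away on the other side, rose by 0.64 (SE 0.11, adjusted p = 0.0156), but its other 2 probe sets differed by 0.36 and -0.18. The other 18 neighbours had differences between -0.17 and 0.13. Chromosome 15 held 17 of the called genes, 5.48% of those with a position, beside 3.82% of the genes tested.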

How the data were processed

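The authors deposited log2 values made by RMA (robust multiarray average) in Partek 6.6, per the submitters' processing notes and the design text; RMA equalizes array distributions, so a change shared by most transcripts is removed. The platform annotation gave 23521 of 41345 probe sets 1 symbol, 1814 several and 16010 none; the brightest of a gene's probe sets stood for it, and 1082 genes had several. Groups came from the sample titles. A limma 3.58.1 model (R 4.3.3) with genotype and treatment and no interaction was fitted to all 10 arrays (7 residual degrees of freedom, prior 5.13); a model with a mean per group gave the differences under each treatment and the interaction. The script was tested on simulated data. Scan dates and batches are not given in the sources used here, and array number limits the precision. Same-numbered arrays deviated together at correlations of -0.06 to 0.40, with 5 of 12 above 0.1. Where both groups hold 2 arrays, numbers 1 and 2 give the same value by construction. The 12 are therefore not all separate, and the highest is counted for both numbers. The highest, 0.40, was between KO vehicle and KO arsenite, and WT arsenite with KO arsenite gave 0.22 and 0.39. Xist was high on both KO replicate 1 arrays and low on both KO replicate 2 arrays. Whether that bears on these correlations was not tested. The labels state no pairs, and the main model has none. Its p-values may be too small if same-numbered arrays share a preparation, which was not tested. A fit with the replicate number as a block is given further on. Named genes were the 15 largest rises and falls past the threshold without overlap, at most 4 called genes per list, list members not past it, the 5 called genes with the smallest interaction p and the called neighbours of Atf4. Clone-type names and the olfactory and vomeronasal receptor genes of the dim reference were left out. Olfr690, a receptor gene left out in this way, passed for genotype without each of the 10 arrays in turn. Genes, lists and rules were chosen with earlier results of these data known. Fold is 2 to the power of the difference. Promoter windows are RefSeq's (GRCm38.p6).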

Additional observations from a re-analysis of the deposited data

Results flagged for a closer look

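The WT arsenite group, the only one with 4 arrays, was checked for single arrays far from the rest in 70 named genes, with Dixon's criterion (the gap to the nearest array over the group's range). It marked 3 genes, and chance marks about 1 in 20. Shmt2 was at 9.93 on WT arsenite replicate 2 while the other 3 arrays lay between 9.24 and 9.34. The ER co-chaperone gene Dnajb9 was at 9.16 on WT arsenite replicate 3 while the others lay between 9.35 and 9.39. Olig2 was at 8.20 on WT arsenite replicate 3 while the others lay between 8.48 and 8.51. The genotype call of Shmt2 was kept without WT arsenite replicate 2, and those of Dnajb9 and Olig2 without WT arsenite replicate 3.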

How the results depend on the processing

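Against 313 genes called for genotype, 118 were called on replicates 1 and 2 only and between 88 and 316 when 1 array was left out. Adding Xist as a covariate gave 687, all 313 among them, and Xist with equal array medians 592; the astrocyte marker mean gave 0. The fit with the replicate number as a block called 337, of which 205 were shared. It held 16 rather than 25 falls in the 4 stress response lists, 1 rather than 5 among regulators and 3 rather than 6 in amino acid synthesis. Replicate numbers 3 and 4 occur only in WT arsenite, so in that fit those arrays add nothing to the genotype differences. Losing them and pairing the rest cannot be told apart there. A filter on dim genes (426), averaged probe sets (294), equal medians (279), array weights (329), trended and robust moderation (350) and equal treatment weights (404) stayed within 1.5 times. Under vehicle, against 96 genes, the counts were 165 with the replicate block, 23 on replicates 1 and 2 only, 193 without dim genes, 228 with array weights, 247 with Xist, 244 with Xist and equal medians, 0 with the astrocyte marker mean, and 0 to 99 with 1 array left out. Under arsenite, against 76, they were 4 with the replicate block, 2 on replicates 1 and 2 only, 40 with array weights, 329 with Xist, 342 with Xist and equal medians (171 higher and 171 lower, against 16 and 60), 1 with the astrocyte marker mean, and 1 to 64 with 1 array left out. The lowest counts came without WT vehicle replicate 2 or KO vehicle replicate 2 under vehicle (0 each) and without KO arsenite replicate 2 (1) or replicate 1 (5) under arsenite. The interaction had 0 calls in each fit. For 70 named genes, 1120 of 1468 comparisons kept direction and call, 346 lost the call, and 2 reversed: with the astrocyte marker mean, which includes Aqp4, Aqp4 was at 0.0368 and Aldoc at 0.0988. The cause of these shifts was not tested. The astrocyte marker mean and the joint Xist and median setting were chosen after seeing the data.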

Other observations

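Probe sets without exactly 1 gene symbol were tested separately by the same model: of 17824, 0 passed the threshold in limma, 1863 had an unadjusted p under 0.05 (10.5%), and the smallest adjusted p was 0.153. Over genes, the corresponding share at an unadjusted p under 0.05 was 16.4% (3633 of 22180).

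The treatment term of the same model, arsenite minus vehicle at a constant genotype, called 583 genes, of which 299 rose and 284 fell. Of the 313 genes called for genotype, 61 were also called for treatment. Slc7a11 was one of them, with a treatment difference of 1.90 (adjusted p = 0.0014) beside its genotype difference of -1.89. Hapln1 was another, with -1.18 (adjusted p = 0.0035) beside -0.83.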
